A study of Mus musculus with 17 samples.

Results

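B and T lymphocyte genes are 36 genes chosen by symbol, with no threshold on their levels, to follow lymphocyte RNA in mouse vein grafts. They comprise 15 genes of B cells, 17 of T cells and 4 of cytotoxic lymphocytes, and 30 of the 36 have a row among the 13212 counted entries. The tissue was inferior vena cava of male C57BL/6J mice aged 10 to 12 weeks, and the labels name no genetic change or drug in any group. Control vena cava was not grafted. The paper's surgical methods include heparin beforehand, injected anaesthetics, their antagonists and buprenorphine. They do not say whether mice that gave control vena cava received these drugs, and the part of the drugs was not tested. For the grafts, a donor vena cava was drawn over cuffs into the carotid artery of another mouse, perfused for 1 h or 6 h, and sequenced without its anastomosis zones, so that a graft can hold blood cells of both animals. Counts of 4 libraries of control, 4 of 1 h grafts and 5 of 6 h grafts were used, and the 24 h columns were not used here. Each count is of a RefSeq transcript entry, called a gene here, and where a symbol has several entries the one with the highest mean count was taken.

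B cells recognise antigen through surface immunoglobulin, which signals through Cd79a and Cd79b, and T cells through a receptor that signals through the Cd3 chains. Both cell types circulate in blood, and vein wall and the fat around it hold small numbers of them. Fat of the body cavities can also hold clusters of B cells, to which cells that carry the receptor Cxcr5 are drawn by the chemokine Cxcl13. In bulk tissue RNA, fewer cells of a type and less RNA per cell cannot be told apart.

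Total counts per library were 7897624 to 11816124. Levels are given as CPM, counts per 1000000 counts of the library after TMM scaling, in the order of the library numbers of the count columns, which are not tied to sample titles. A count of 0 allows up to 3 counts, or 0.254 to 0.380 CPM before scaling, and such limits cover counting error only. Nothing in the labels says whether libraries of a group came from separate animals, so the spread between them may be partly technical. Within a group, log2 CPM of 2 libraries correlated at 0.680 to 0.797 across genes, and the fit had a biological coefficient of variation of 1.03. Control and 6 h libraries carry the number 7 in their sample titles, read here as the lane, and the 1 h libraries 8, so lane and time cannot be told apart for 1 h. Markers of vein wall were found throughout but differed among the groups. Summed endothelial markers were at 119 to 174 CPM in controls, 189 to 458 in the 1 h grafts and 291 to 446 in those of 6 h. For this sum all grafts lay above all controls. Summed smooth muscle markers were at 300 to 625 CPM in controls, 451 to 739 in the 1 h grafts and 175 to 378 in those of 6 h. Summed heart muscle markers spanned 226 to 12634.5 CPM, and summed neutrophil markers were at 26.6 to 72.9 CPM in controls, 1111 to 9424 in the 1 h grafts and 2510.0 to 51769 in those of 6 h.

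Of the 36 genes, 6 had no count row. Absent from the count tables were Fcrla, a receptor-like protein of B cells, and Fcer2a, the low-affinity IgE receptor. Absent too were Cd8a, the coreceptor of cytotoxic T cells, Lck, the kinase that starts T cell receptor signalling, Cd6, a T cell adhesion receptor, and Bcl11b, a transcription factor of T cell identity. Each of these 6 has 2 to 5 transcript entries in the authors' larger table, where their summed mean was 0 to 1.53 normalised counts. All 29 members with 1 entry have a count row, whereas of 7 members with 2 or more entries only Cd22 has one, with an authors' mean of 7.49. Over all symbols, 64.3% of 16652 with 1 entry and 35.4% of 3620 with 2 or more have a count row, and the median authors' mean was 40.8 and 0.701. Counting as HTSeq does by default sets aside reads that several entries share. Its part in these values was not tested, and no statement is made on these 6 genes.

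Of the 30 counted members, control 4 and 6 h library 1 held at least 1 count of all 30. Members with a count numbered 27, 28 and 25 in controls 1, 2 and 3, 25, 19, 28 and 28 in the 1 h libraries, and 24, 26, 28 and 21 in 6 h libraries 2 to 5. At least 10 counts were found for 21, 27, 22 and 30 members in controls, 13, 12, 26 and 24 at 1 h and 28, 16, 19, 23 and 18 at 6 h. Lymphocyte genes were thus detected in every library, and 1 h libraries 1 and 2 held the fewest members at 10 counts.

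**Figure D1:**
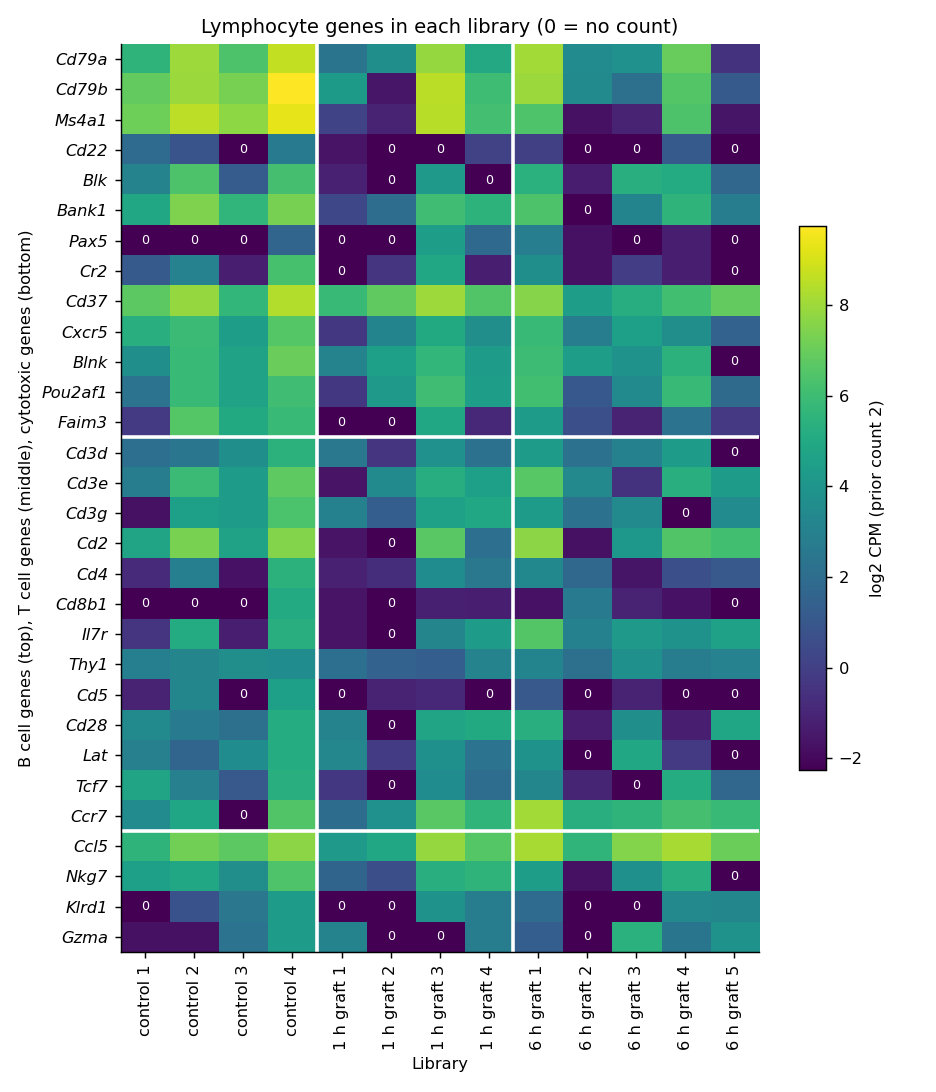
Level of the 30 counted lymphocyte genes (rows) in the 13 libraries (columns), as log2 CPM with a prior count of 2, where a printed 0 marks a library with no count. The brightest columns are controls 2 and 4, 1 h library 3 and 6 h library 1, and single dark cells stand inside otherwise bright columns.

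Lymphocyte genes spread widely among the libraries of each group. The 13 counted B cell genes summed to 506, 1646, 655 and 2873 CPM in controls, 93.9, 179, 1510.1 and 359 at 1 h and 1147, 77.2, 151, 567 and 134 at 6 h. The T cell genes, also 13, summed to 103, 355, 108 and 771 CPM in controls, 40.8, 31.4, 354 and 184 at 1 h and 792, 80.1, 158, 282 and 223 at 6 h. The 4 cytotoxic genes summed to 69.0, 176, 129 and 329 CPM in controls, 29.1, 30.4, 279.7 and 156 at 1 h and 317, 48.1, 237, 344 and 156 at 6 h. Controls 2 and 4, 1 h library 3 and 6 h library 1 were high for B and for T cell genes, and for each of the sums the 3 groups overlapped. From the lowest to the highest library of a group the B cell sum spanned 5.68-fold in controls, 16.1-fold at 1 h and 14.9-fold at 6 h. The group medians of the B cell sum were 1151, 269 and 151 CPM (control, 1 h, 6 h), and those of the T cell sum were 232, 113 and 223 CPM. Within the T cell genes the medians differed in course. Cd3d, Cd3e and Cd3g alone summed to medians of 70.8, 35.6 and 31.8 CPM in the same order. The medians of Ccr7 were 20.1, 30.6 and 55.9 CPM, and its part in the T cell sum was not tested. One library stood highest for most genes of its group: control 4 for 26 of the 30 members, 1 h library 3 for 23 and 6 h library 1 for 22.

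**Figure D2:**
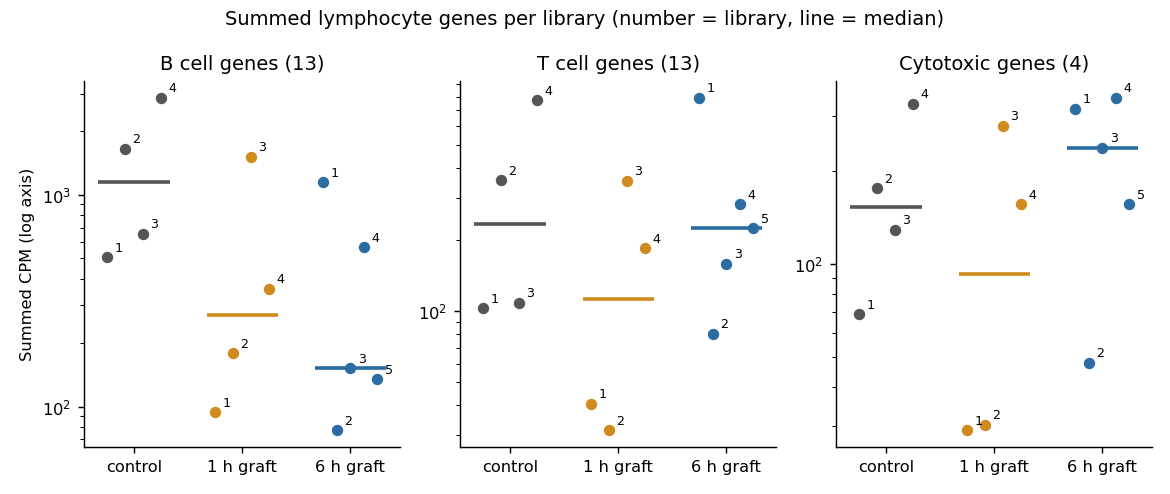
Summed CPM of the counted B cell, T cell and cytotoxic genes, on log axes, with 1 point per library, its number beside it and the group median as a line. The groups overlap in each panel, and 1 h libraries 1 and 2 are the lowest of their group throughout.

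Over the 13 libraries, the log2 of the B cell sum and that of the T cell sum went together, with Pearson's r of 0.77 and Spearman's rho of 0.76. Without the 2 libraries farthest from the median of the B cell sum, r was 0.69 over 11 libraries. The points share the scaling of each library, and the values are given as a description.

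Cd79a, Cd79b and Ms4a1, which define B cells, were each at 46.9 CPM or more in all 4 controls. Among the grafts, 1 h library 3 and 6 h libraries 1 and 4 also reached that level for each of them. Cd79a (chromosome 7, 25682400 to 25687216, mm9), a signalling chain of the B cell receptor, was at 46.9, 250.1, 82.6 and 399 CPM in controls, 4.89, 12.8, 227 and 31.4 at 1 h and 271, 11.2, 13.9, 122 and 0.503 at 6 h. Cd79b (chromosome 11, 106172655 to 106176076), its partner chain, was at 115, 245, 157 and 859 CPM in controls, 19.1, 0.134, 359 and 65.1 at 1 h and 244, 11.0, 4.35, 92.9 and 2.01 at 6 h. Ms4a1 (chromosome 19, 11324654 to 11340669), which encodes CD20, was at 136, 381, 207 and 625 CPM in controls, 0.932, 0.268, 354 and 70.8 at 1 h and 87.4, 0.0937, 0.248, 82.8 and 0.126 at 6 h. Within a group these genes mostly ranked the libraries alike, but not always: 1 h library 2 held 96 counts of Cd79a, 1 of Cd79b and 2 of Ms4a1, and 6 h library 2 held 120, 117 and 1. Ms4a1 was the one member whose 6 h libraries all lay below all controls, at 878 counts or fewer against 1483 or more. Groups that do not overlap in that direction were found for 5.31% of all 11123 genes tested, so 1 such member is no result about these genes. For Ms4a1 the log2 fold change was -3.30 ± 1.75 (SE, adjusted p = 0.324) at 6 h and -1.66 ± 1.79 (SE, adjusted p = 0.999) at 1 h by edgeR's quasi-likelihood test. For Cd79b it was -1.63 ± 1.48 at 1 h and -2.28 ± 1.40 at 6 h, and for Cd79a -1.50 ± 1.35 at 1 h and -1.22 ± 1.25 at 6 h. Neither gene passed the test at either time, with adjusted p of at least 0.411.

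**Figure D3:**
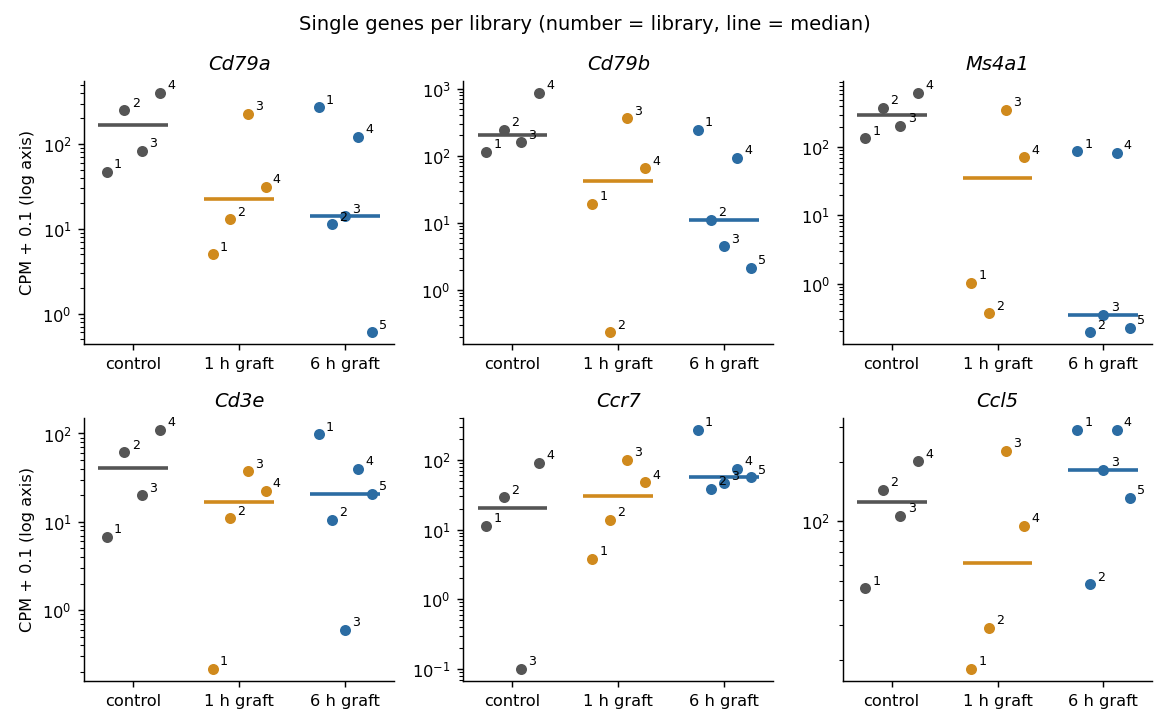
CPM plus 0.1 of 6 single genes on log axes, with 1 point per library, its number beside it and the group median as a line. Ms4a1 at 6 h splits into libraries 1 and 4 at 87.4 and 82.8 CPM and libraries 2, 3 and 5 at 2 counts or fewer, while the groups overlap for Ccl5.

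Genes of B cell signalling were missing from single libraries in each group of grafts. Blk, a kinase of the Src family that acts under the B cell receptor, was at 8.42, 84.9, 2.14 and 74.4 CPM in controls, 0.233, 0, 18.1 and 0 at 1 h and 41.8, 0.187, 38.0, 34.5 and 3.02 at 6 h. Bank1, a scaffold of B cell receptor signalling, was at 29.0, 173, 49.8 and 153 CPM in controls, 1.05, 3.88, 65.6 and 44.4 at 1 h and 83.9, 0, 8.70, 45.9 and 6.67 at 6 h. Blnk, the linker that joins the receptor to its downstream enzymes, was at 13.1, 58.8, 25.3 and 129 CPM in controls, 8.50, 22.5, 50.6 and 20.038 at 1 h and 62.8, 22.2, 14.8, 43.4 and 0 at 6 h. Blk was absent from 1 h libraries 2 and 4, Bank1 from 6 h library 2 and Blnk from 6 h library 5, each a library that held counts of the other signalling genes or of Cd79a. The log2 fold change of Blk was -3.21 ± 1.83 at 1 h and -0.85 ± 1.59 at 6 h, that of Bank1 -1.82 ± 1.35 at 1 h and -1.80 ± 1.25 at 6 h and that of Blnk -1.15 ± 1.11 at 1 h and -0.98 ± 1.04 at 6 h, and none passed the test (adjusted p of at least 0.483). Without 1 h library 3, Blk was at -8.87 (adjusted p = 0.0843) at 1 h, and that library held 166 of the 168 counts of Blk at 1 h.

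Surface receptors and a coactivator were spread in the same manner. Cd37, a tetraspanin of mature B cells that other leucocytes also express, was at 107, 231, 51.5 and 328 CPM in controls, 57.9, 112, 253 and 88.6 at 1 h and 189.8, 22.2, 36.7, 68.0 and 115 at 6 h. Cxcr5, the receptor for Cxcl13, was at 39.5, 59.5, 21.5 and 94.6 CPM in controls, 0.582, 8.70, 32.3 and 12.3 at 1 h and 58.6, 6.84, 22.7, 12.4 and 2.64 at 6 h. Pou2af1, the coactivator that B cells use at octamer sites, was at 4.76, 58.5, 24.9 and 65.9 CPM in controls, 0.582, 17.8, 67.2 and 21.9 at 1 h and 67.9, 1.87, 10.8, 57.7 and 3.52 at 6 h. Cd37 varied least among these B cell genes, and Cxcr5 was under 1 CPM in 1 h library 1 alone. Log2 fold changes were -0.49 ± 0.66 at 1 h and -1.05 ± 0.62 at 6 h for Cd37, -1.997 ± 1.03 at 1 h and -1.38 ± 0.94 at 6 h for Cxcr5 and -0.52 ± 1.19 at 1 h and -0.44 ± 1.12 at 6 h for Pou2af1. Their adjusted p were at least 0.386. An exon of Cd37 overlaps one of Tead2 by 4 bases in the annotation.

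The other 4 counted B cell genes were low or patchy. Cd22, an inhibitory receptor, reached 6.07 CPM at most and had no count in 6 libraries, while Pax5, the transcription factor that commits cells to the B lineage, had none in 7. Cr2, the complement receptor of B cells and follicular dendritic cells, was at 77.1 CPM in control 4 and 30.5 in 1 h library 3 and at 12.7 or less elsewhere. Faim3, the Fc receptor for IgM, ranged from 0.641 to 95.5 CPM in controls, up to 30.6 in 1 h grafts and 0.248 to 19.8 in 6 h grafts. An exon of Pax5 overlaps an exon of Gm12462 by 125 bases, so its few counts may not be its own.

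Pou2af1 acts at octamers, and the windows around gene starts were searched for that motif (ATGCAAAT, both strands) and for the core bound by the B cell factor EBF (CCCNNGGG, both strands, which can overlap each other). Promoters were taken from RefSeq on GRCm38.p6, another build than that of the counts, from 250 bases before to 50 after the start, and 23 of the 36 members matched, 11 of them B cell genes. The octamer was found in 1 of the 11, against 1.74% of all 32851 promoters, and the EBF core in 2 of 11, against 13.7%. Both promoters are shown because Blnk is the one member with an octamer and Bank1 is the B cell member with an EBF core whose level was closest to the B cell sum, and capitals mark the motif.
Blnk: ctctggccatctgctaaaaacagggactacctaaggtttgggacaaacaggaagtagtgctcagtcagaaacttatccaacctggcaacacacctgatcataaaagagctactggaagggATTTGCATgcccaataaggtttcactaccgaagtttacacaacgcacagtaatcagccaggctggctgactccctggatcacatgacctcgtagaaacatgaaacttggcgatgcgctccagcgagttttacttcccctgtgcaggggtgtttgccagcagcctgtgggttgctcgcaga
Bank1: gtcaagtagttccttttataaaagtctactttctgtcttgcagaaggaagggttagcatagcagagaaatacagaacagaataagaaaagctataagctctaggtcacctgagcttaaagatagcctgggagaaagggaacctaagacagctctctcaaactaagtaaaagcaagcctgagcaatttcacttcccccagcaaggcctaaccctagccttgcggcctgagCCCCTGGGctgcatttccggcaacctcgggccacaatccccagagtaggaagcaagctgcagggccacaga
The Blnk window lies on chromosome 19, 40994172 to 40994471, minus strand, with the octamer in its reverse complement starting 130 bases before the start site. The Bank1 window lies on chromosome 3, 136326017 to 136326316, minus strand, and its core starts 21 bases before the start site. A match is a description of these letters and not a site in use.

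T cell receptor genes were counted in most libraries, but each had few or no counts in some. Cd3d, Cd3e and Cd3g, the signalling chains of the receptor, are neighbours on chromosome 9 (44777655 to 44817673, mm9). Cd3e was at 6.68, 60.8, 19.8 and 110.2 CPM in controls, 0.116, 10.8, 37.3 and 22.4 at 1 h and 98.2, 10.4, 0.497, 39.7 and 20.6 at 6 h. Cd3g was at 0.0916, 22.5, 20.2 and 81.3 CPM in controls, 7.92, 2.28, 24.4 and 30.6 at 1 h and 19.8, 4.40, 11.1, 0 and 11.2 at 6 h. Cd3d was at 4.21, 5.32, 12.8 and 43.5 CPM in controls, 5.59, 0.535, 13.7 and 4.64 at 1 h and 20.5, 4.59, 7.95, 20.4 and 0 at 6 h. Control 4 was the highest control for all 3 chains, yet the chains did not rank the other libraries alike. Control 1 held 46 counts of Cd3d, 73 of Cd3e and 1 of Cd3g, and 6 h library 4 held 193, 375 and 0. Log2 fold changes were -1.48 ± 1.28 at 1 h and -0.54 ± 1.18 at 6 h for Cd3e, -0.93 ± 1.42 at 1 h and -1.74 ± 1.34 at 6 h for Cd3g and -1.43 ± 1.38 at 1 h and -0.62 ± 1.28 at 6 h for Cd3d, with adjusted p of at least 0.541.

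Cd2, an adhesion receptor of T cells and natural killer cells, was at 26.4, 159.9, 24.6 and 184 CPM in controls, 0.116, 0, 103 and 4.11 at 1 h and 204, 0.0937, 17.6, 88.1 and 69.9 at 6 h. Cd4, the coreceptor of helper T cells that some myeloid cells also carry, was at 0.366, 7.47, 0.107 and 43.8 CPM in controls, 0.233, 0.401, 11.8 and 5.59 at 1 h and 9.86, 3.28, 0.124, 1.38 and 1.89 at 6 h. Ccr7, the receptor that guides T cells and dendritic cells to lymphoid tissue, was at 11.3, 29.0, 0 and 90.6 CPM in controls, 3.73, 13.8, 100.4 and 47.4 at 1 h and 271, 38.3, 45.8, 74.4 and 55.9 at 6 h. Cd2 was at or under 1 count in 1 h libraries 1 and 2 and in 6 h library 2, and 577 of the 662 counts of Cd4 in controls came from control 4. For Ccr7 the 6 h libraries were all at 38.3 CPM or more against 0 to 90.6 in controls. The log2 fold change of Ccr7 was 0.33 ± 1.19 (SE, adjusted p = 0.999) at 1 h and 1.57 ± 1.17 (SE, adjusted p = 0.523) at 6 h, and the groups overlapped. Without control 4 these values were 1.65 and 2.85, and without control 3 the 1 h value was -0.08. For Cd2 they were -1.89 ± 1.67 at 1 h and -0.38 ± 1.53 at 6 h and for Cd4 -1.52 ± 1.71 at 1 h and -1.96 ± 1.61 at 6 h. Without control 4, Cd4 turned to 0.79 at 1 h and 0.32 at 6 h, and Cd2 to 0.11 at 6 h. Ccr7 is also a gene of activated dendritic cells, whose summed markers were at 63.4 to 103 CPM in controls, 43.2 to 115 in 1 h grafts and 28.2 to 147 in 6 h grafts, and their part in its level was not tested.

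The remaining T cell genes were at 93.3 CPM or less in every library. Il7r, the receptor for interleukin 7, reached that level in 6 h library 1 and was under 1 CPM in controls 1 and 3 and in 1 h libraries 1 and 2. Thy1, which stromal cells express as well as T cells, was the steadiest, at 7.42 to 12.5 CPM in controls, 2.29 to 8.54 in 1 h grafts and 4.31 to 13.5 in 6 h grafts. Cd28, the costimulatory receptor, ranged from 0 to 40.1 CPM over all libraries. Lat, the adaptor under the T cell receptor, and Tcf7, a transcription factor of naive T cells, ranged from 0 to 35.3 and from 0 to 40.1 CPM. Cd8b1, the second chain of the Cd8 coreceptor, had 444 counts in control 4 and 68 in 6 h library 2 and at most 2 elsewhere. Cd5, a receptor that dampens T cell signalling, had 98 and 296 counts in controls 2 and 4 and 19 or fewer elsewhere. Cd8b1 and Cd5 were under the filter on low counts and have no value in the main test. Tested without that filter, their log2 fold changes at 1 h against control were -5.82 ± 2.71 for Cd8b1 and -5.65 ± 2.42 for Cd5, with adjusted p of 0.521 and 0.463.

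The group medians of the cytotoxic sum were 152, 93.0 and 237 CPM (control, 1 h, 6 h), and Ccl5 made up most of that sum in each of the 13 libraries. Ccl5, a chemokine made by memory and cytotoxic T cells and natural killer cells and also by other leucocytes, was at 46.0, 144, 106 and 201 CPM in controls, 17.9, 29.0, 227 and 94.7 at 1 h and 289.7, 48.0, 182, 289 and 132 at 6 h. Nkg7, a granule protein, was at 23.0, 30.5, 12.4 and 86.7 CPM in controls, 2.79, 1.34, 38.4 and 47.1 at 1 h and 21.5, 0.0937, 13.4, 39.5 and 0 at 6 h. Klrd1, a natural killer cell receptor, and Gzma, a granule protease, were at 42.0 CPM or less, each with no count in several libraries. Ccl5 had at least 154 counts in every library. Its log2 fold change was -0.43 ± 0.69 (SE, adjusted p = 0.999) at 1 h, 0.60 ± 0.66 (SE, adjusted p = 0.703) at 6 h and 1.03 ± 0.67 (SE, adjusted p = 0.526) between 1 h and 6 h, none past the threshold. For Nkg7 it was -0.77 ± 1.45 at 1 h and -1.36 ± 1.37 at 6 h.

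None of the members was called in any comparison. The 28 members tested, 13 of B cells, 11 of T cells and 4 cytotoxic, had 0 higher and 0 lower at 1 h against control by edgeR at an adjusted p under 0.05, where 1.12% of all 11123 genes were higher and 0.00899% lower. At 6 h against control there were again 0 and 0, beside 5.58% of genes called higher and 1.59% called lower. For 6 h against 1 h the members gave 0 and 0 as well, beside 2.63% of genes called higher and 1.02% called lower. At an unadjusted p under 0.05, edgeR gave 0 members in each comparison with the filter and scaling described here. Without the filter it gave 2 lower at 1 h, where 3.46% of all genes were lower at that p. With scaling by library totals or with the 2 compared groups only it gave 1 lower at 6 h, where 15.2% and 7.36% of all genes were. Single libraries changed these counts. Without 1 h library 3, 7 of 29 members were lower at 1 h, beside 3.21% of all genes. In that fit 4 were higher at 6 h against 1 h, beside 9.16%. Without 6 h library 1, 5 of 27 were lower at 6 h, beside 8.23%. The other fits with 1 library left out gave at most 2 in a comparison (at 6 h without control 3, beside 6.59%). DESeq2 also called 0 after adjustment, and at an unadjusted p it had 2 lower at 1 h (Blk and Cxcr5), beside 3.45% of all genes, 1 lower at 6 h (Faim3), beside 11% of all genes, and 0 between 1 h and 6 h. The smallest adjusted p of a member was 0.699 at 1 h (Cxcr5), 0.324 at 6 h (Ms4a1) and 0.526 between 1 h and 6 h (Ccl5). With standard errors of 0.62 to 2.52 on the log2 scale, a miss of the threshold does not show that levels were alike.

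Groups that did not overlap were rare among the members, as they were among all genes. With 28 members tested, counts of 0 or 1 are no result about these genes. At 1 h no member lay wholly above or below control, where 3.56% of all genes did so above and 2.09% below. At 6 h 0 members lay above and 1 below, where the shares over all genes were 9.24% and 5.31%. Between 1 h and 6 h it was 0 and 0, where 6.49% and 3.13% of all genes did.

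The fitted differences of the members leaned to lower values in the grafts without passing the test. At 1 h, 25 of 28 members had a negative log2 fold change with a median of -1.39, beside 5757 of 11123 genes and a median of -0.04. At 6 h it was 22 of 28 with a median of -0.92, beside 5737 genes and a median of -0.05. By lineage, 12 of 13 B cell genes were negative at either time (median -1.63 at 1 h and -1.38 at 6 h). T cell genes had 9 of 11 (-1.35) at 1 h and 8 of 11 (-0.54) at 6 h, and cytotoxic genes 4 of 4 (-0.58) and 2 of 4 (0.01). Both comparisons share the 4 controls, and members share the libraries in which they are high. Without control 4 the median over members was -0.29 at 1 h and -0.19 at 6 h, and 10 and 12 of 28 were positive, beside medians over all genes of 0.03 and 0.01. Without 1 h library 3 the median at 1 h was -2.16 over 29 members and -0.06 over all genes. Without 6 h library 1 the median at 6 h was -1.48 over 27 members and -0.06 over all genes, and no member passed after adjustment in any of these fits.

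Between 1 h and 6 h, 17 of 28 members had a positive log2 fold change with a median of 0.23, beside 5574 of 11123 genes and a median of 0.00. Medians were 0.02 for B cell, 0.91 for T cell and 0.41 for cytotoxic genes. Ms4a1 was at -1.64 ± 1.67 (SE, adjusted p = 0.731), Cd79b at -0.65 ± 1.36 (SE, adjusted p = 0.895) and Cd3e at 0.94 ± 1.21 (SE, adjusted p = 0.803). This median moved with single libraries. Without 6 h library 1 it was -0.27, with 12 of 27 positive, beside 49.8% of all genes and a median of -0.01. Without 1 h library 3 it was 1.33, with 27 of 29 positive, beside 51.5% of all genes and a median of 0.04, and the smallest adjusted p of a member was 0.0664 (Blk). Without 1 h library 3, Ms4a1 and Cd79b turned to 0.51 and 1.33.

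**Figure D4:**
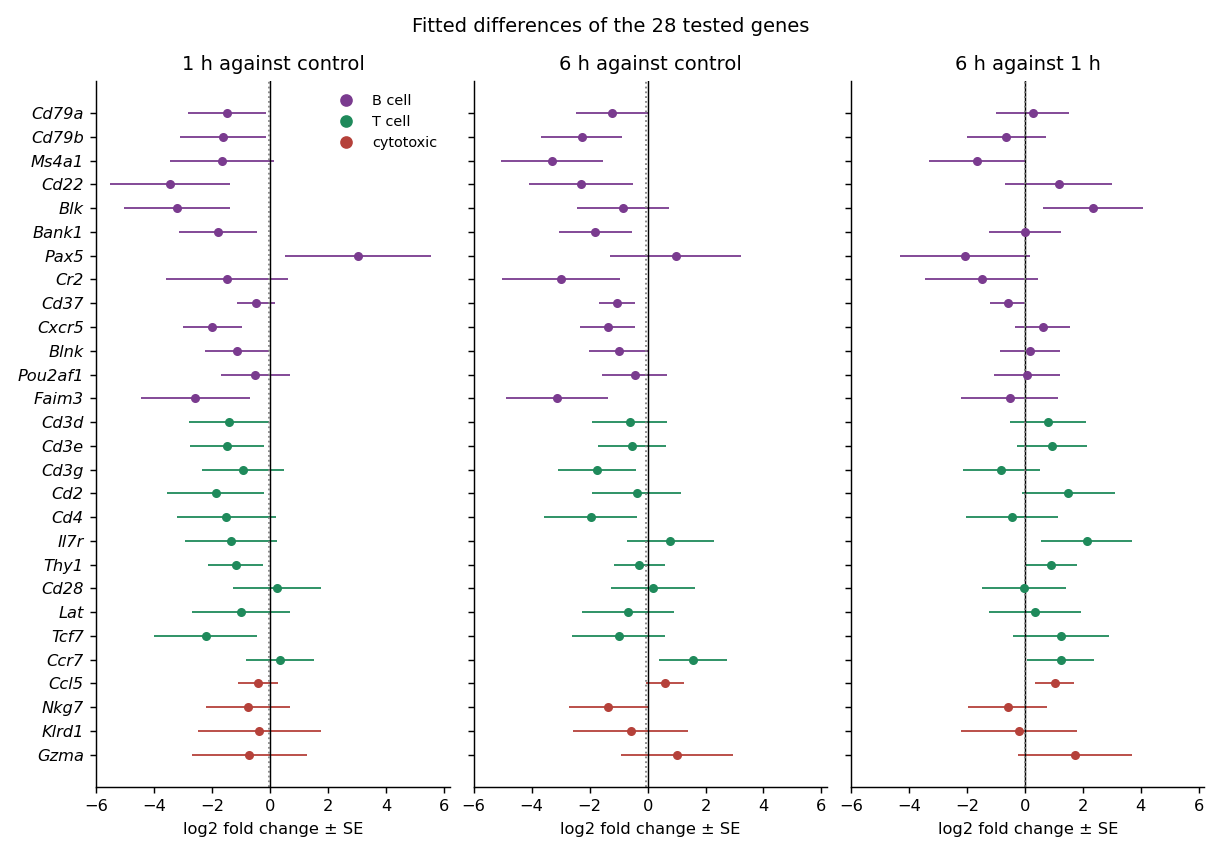
Log2 fold change of the 28 tested genes with its standard error in the 3 comparisons, by edgeR, with a solid line at 0 and a dotted line at the median of all genes. Most points of the left and middle panels lie to the left of 0, at medians of -1.39 and -0.92, and no gene passed the test.

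The balance between B and T cell genes was compared within each library, where total depth and scaling cancel. This ratio was chosen after values had been seen and is given as a description without a test. Summed B over summed T cell CPM was 4.93, 4.64, 6.05 and 3.72 in controls, 2.30, 5.69, 4.27 and 1.95 at 1 h and 1.45, 0.964, 0.957, 2.01 and 0.602 at 6 h. All 6 h libraries lay below all controls, with a median of 0.964 against 4.78, while the 1 h libraries overlapped with both. Since genes differ in length, the ratio compares libraries and not numbers of cells. With the defining chains only, Cd79a, Cd79b and Ms4a1 over Cd3d, Cd3e and Cd3g, the ratio was 27.1, 9.87, 8.46 and 8.01 in controls, 1.83, 0.971, 12.5 and 2.90 at 1 h and 4.35, 1.15, 0.949, 4.95 and 0.0830 at 6 h. Without Cd37, Blnk, Ccr7, Il7r and Thy1, which other cells also express, 6 h was again below control, at 0.142 to 2.45 against 3.83 to 6.06. That version kept Cd4, Cr2 and Cd2, which other cells can carry as well, so it is not free of shared genes. Neither sum alone separated the groups, and the ratio did so between 6 h and control in all 3 versions. These versions share genes and all libraries, so they are not separate evidence. Of single genes, 5.31% lay wholly below control at 6 h, and no such share was taken for ratios.

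**Figure D5:**
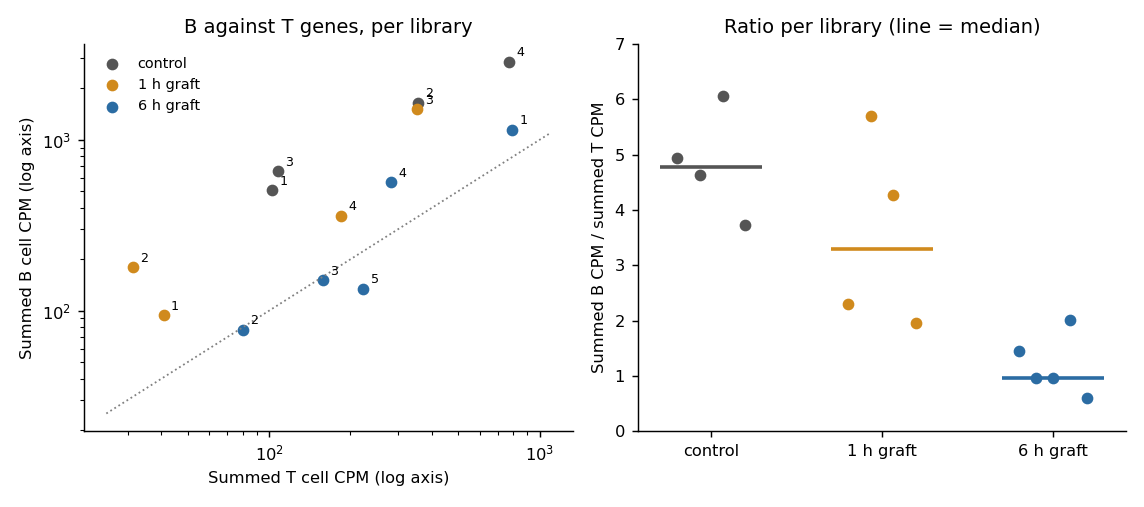
Left, summed B cell against summed T cell CPM per library on log axes, with a dotted line where both are equal. Right, their ratio per library with the group median as a line, in which the 5 points at 6 h, from 0.602 to 2.01, lie below the 4 control points, from 3.72 to 6.05.

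The genes outside the list whose log2 CPM went most closely with the B cell sum over the 13 libraries included several of MHC class II. The closest was H2-DMa, a chain that loads peptides onto MHC class II, with r = 0.93, at 177, 297, 123 and 457 CPM in controls, 42.9, 65.8, 288 and 116 at 1 h and 254, 13.963, 30.3, 147 and 10.4 at 6 h. It was high in controls 2 and 4, 1 h library 3 and 6 h library 1, as the B cell genes were. Next came Enpp2, the enzyme that makes lysophosphatidic acid, Recql5, a DNA helicase, and Ptprcap, a partner of the leucocyte phosphatase CD45, with r = 0.92 each. H2-Ab1, a chain of MHC class II that B cells, dendritic cells and macrophages display, was at 0.92 as well. Other genes of MHC class II were close too, H2-Eb1 and H2-Aa with r = 0.91 and H2-DMb2 and Cd74 with r = 0.90. Among members the closest were Ms4a1 (0.93), Bank1 (0.91) and Cd79a (0.90), each of them part of the sum, and Ccr7 was at 0.23. With the T cell sum, Il2rg, the common chain of interleukin receptors, had r = 0.94 and Gpr18, a receptor of leucocytes, 0.89. The closest members to that sum were Ccl5 (0.89) and Cd2 (0.89), of which Cd2 is part of it. Of the receptor chains, Cd3e was at 0.72, Cd3d at 0.51 and Cd3g at 0.40. Such values were read off over libraries that share 1 scaling, with no p.

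Cxcl13, the chemokine that draws B cells, mostly followed the same libraries, with r = 0.87 to the B cell sum. It was at 671, 1055, 664 and 2655 CPM in controls, 88.3, 330.1, 2257 and 314 at 1 h and 1446, 127, 994, 1384 and 245 at 6 h. As with the B cell genes, controls 2 and 4, 1 h library 3 and 6 h library 1 were high, 6 h library 4 was high as well, and the groups overlapped. Unlike the B cell genes, which summed to 151 CPM there, Cxcl13 was near the level of control 2 in 6 h library 3. Its log2 fold change was -0.76 ± 0.88 (SE) at 1 h and -0.59 ± 0.83 at 6 h. Of 10 genes of lymphoid stroma and homing, 5 were counted and 0 passed edgeR's test in any direction or comparison. Glycam1, a mucin of lymph node vessels, was the one with an unadjusted p under 0.05, lower at 1 h than control and higher at 6 h than at 1 h, on at most 17.9 CPM. Over all genes, 2.45% were lower and 9.11% higher at that p in these 2 comparisons.

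Other genes of lymphocytes gave the same count. Of a list of 52, 36 were tested and 0 passed in any comparison by edgeR. At an unadjusted p under 0.05 there was 1 lower at 1 h (Prf1, the pore-forming protein of cytotoxic cells), 3 lower at 6 h (Klrk1, a natural killer cell receptor, Ltb, a cytokine that organises lymphoid tissue, and Spib, a B cell transcription factor) and 1 lower at 6 h against 1 h (Klrk1). Over all genes, 2.45%, 7.89% and 6.53% were lower at that p in these comparisons, so these counts are no result about the list. Klrk1 had the smallest adjusted p, 0.0746, on levels of 1.59 CPM or less.

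Markers of other tissue also differed among the libraries. The summed level of 4 mesothelial markers (Msln, Upk3b, Lrrn4 and Wt1), of the cells that line the body cavity, was 426, 471, 519.9 and 568 CPM in controls, 118, 123, 586 and 176 at 1 h and 121, 144, 115, 106 and 102 at 6 h. The 1 h library with the highest lymphocyte level, library 3, was the one 1 h library at or above the level of controls, whereas 6 h library 1 was low for mesothelial markers and high for lymphocytes. Of the 4 markers, 1 was lower at 6 h than in control (Upk3b, -3.27 ± 0.64, adjusted p = 0.00409). Summed markers of macrophages and monocytes were at 2222 to 4088 CPM in controls, 2005 to 3351 in 1 h grafts and 1094 to 2467 in 6 h grafts. Summed fat cell markers were at 5373 to 7295 CPM in controls and 3253 to 4931 in 6 h grafts, and summed fibroblast markers at 1659.9 to 2780.5 and 1051 to 1602, so that for both sums all 6 h libraries lay below all controls. Single fat cell markers were not called by edgeR at 6 h against control. Adipoq was at -0.54 (adjusted p = 0.206) and Cidec at -0.55 (adjusted p = 0.149), while Lep went the other way, at 1.26 (adjusted p = 0.287). Of 4 fibroblast markers tested there, 1 was called lower (Col3a1). Control 4, the highest control for lymphocyte genes, had summed heart muscle markers of 1326 CPM against 6528 to 7697 in the other controls. The part of these cells in the lymphocyte levels was not tested.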

How the data were processed

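RNA of control vena cava and vein grafts was sequenced after low-input amplification (SMARTer). Per the labels and methods, read quality was checked by the authors in FastQC 0.11.5, gsnap was the aligner, with mm9 as the genome, HTSeq 0.5.4p3 the counter and DESeq2 1.14.1 the test. Raw counts per transcript entry were deposited. The authors' deposited table of 29994 entries gives signal values, means of counts divided by size factors, used here only for genes without a count row. Its fold changes, test statistics and p-values are the authors' own comparisons and were not used. Values of libraries present in several tables were equal. There were 30 columns named 24 h over all tables, 5 of them raw counts in 1 table, where 4 of the 17 samples carry that label, so they were not used here.

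Here edgeR 4.0.16 was run in R 4.3.3: filterByExpr kept 11123 entries, followed by TMM scaling (factors 0.769 to 1.20), a robust quasi-likelihood fit of all 13 libraries by group, and 2-sided p-values adjusted by Benjamini and Hochberg over all entries at 0.05. Standard errors come from this fit. Log2 CPM use a prior count of 2. The procedure was tested on simulated data. Members named with full values are those called, the 14 with the highest mean CPM and the defining receptor chains and coreceptors; others are given by range. The members and lists were chosen with earlier results of these data known. Alternatives were DESeq2 1.42.0, scaling by upper quartiles or by library totals, no filter, at least 50 counts in 4 libraries, the 2 compared groups only, entries of a symbol summed, a detection minimum of 10 counts and each library left out. The B to T ratio and its versions were added after the data were seen. Positions are from GENCODE vM1 on mm9, and promoters from RefSeq on GRCm38.p6.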

Additional observations from a re-analysis of the deposited data

Results flagged for a closer look

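Values of 2 members stood apart from their group. Blnk in 6 h library 5 had 0 counts, at -2.27 log2 CPM against a median of 4.97 in the other 6 h libraries, and its gap to the nearest library was 0.749 of the group's range, where 0.71 is the critical value of Dixon's test for 5 libraries. That library held 4 counts of Cd79a, 16 of Cd79b and 916 of Cd37. Blk in 1 h library 3 had 166 counts, at 4.19 log2 CPM against a median of -2.27 in the other 1 h libraries, and its gap was 0.832 of the range, just above the critical value for 4 libraries. The test was applied to 63 groups of values, of which chance marks about 1 in 20.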

How the results depend on the processing

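The count of members called was 0 in each direction of each comparison under all alternatives and with each of the 13 libraries left out. With all libraries kept, the direction and side of the threshold of the 17 members given in full were the same under each alternative in both comparisons with control, and so were those of Ms4a1, Cd79b, Cd3e, Ccr7 and Ccl5 between 1 h and 6 h, the genes recomputed there. With 1 library left out, log2 fold changes that turned sign had these ranges. At 1 h against control they were -1.06 to 0.016 for Cd37, -1.38 to 0.22 for Cd3g, -2.64 to 0.79 for Cd4, -0.60 to 1.65 for Ccr7 and -1.38 to 0.055 for Nkg7. At 6 h against control they were -0.9999 to 0.53 for Cd3d, -1.48 to 0.22 for Cd3e, -1.17 to 0.11 for Cd2 and -2.95 to 0.32 for Cd4. Between 1 h and 6 h they were -2.01 to 1.33 for Cd79b and -2.36 to 0.51 for Ms4a1. Most turned without control 4, Ccr7 without control 3 or 1 h library 3, and the last comparison without 1 h library 3; the cause was not tested. Scaling by library totals moved the median of all genes at 6 h from -0.05 to -0.46 and that of members from -0.92 to -1.32, and between 1 h and 6 h from 0.00 to -0.31 and from 0.23 to -0.05. With defining chains only, the median B to T ratio in controls was 9.17 in place of 4.78. No paired analysis was possible because the numbers in the sample titles overlap between the compared groups by at most 1, and the numbers of the count columns are not tied to titles. Groups had 4 or 5 libraries and many members had few counts; the part of amplification in the spread was not tested.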
